A study of Homo sapiens and Homo sapiens
Mus musculus and Mus musculus with 9 samples.

Results

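Mitochondria fuse, divide, are cleared by mitophagy and are made anew, and 10 human genes of these processes were followed here by symbol in the deposited table. All 10 were found, among 41713 genes of which 19939 are protein-coding. Its columns draw on 2 kinds of culture with 3 libraries each, C4-2B cells on their own and C4-2B cells mixed with MC3T3-E1 cells, where 1 cancer cell met 30 osteoblasts. The line C4-2B comes from human prostate cancer, and the line MC3T3-E1 from mouse osteoblasts. The labels give alpha-MEM with FBS for all cells and every culture as wild type, untreated but for the co-culture. The study's methods name RPMI-1640 for C4-2B and alpha-MEM for MC3T3-E1. For co-cultures they give the medium of the stromal cells, unless specified. Osteoblasts on their own (3 libraries) were not used here. Human reads were separated from mouse reads by Xenome, by XenofilteR or by Kallisto, and each pipeline gives 1 mean count per gene. This authors' mean pools both cultures over 6 libraries, after division by DESeq2 size factors. It carries no error and does not tell the co-culture from C4-2B alone, so the values describe levels across both cultures and how far the pipelines differed, and no change in the co-culture is reported.

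In fusion, the mitofusins MFN1 and MFN2 join outer membranes and OPA1 joins inner membranes. DNM1L encodes DRP1, the dynamin-related GTPase that constricts mitochondria in fission. PINK1 is the kinase that marks damaged mitochondria for the ubiquitin route of mitophagy, whereas BNIP3 and BNIP3L (NIX) are outer membrane receptors that bind the autophagy machinery and are known as hypoxia-responsive genes. PPARGC1A encodes the coactivator PGC-1alpha, which works with transcription factors such as NRF1 and ESRRA to drive genes of the respiratory chain.

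The number of reads assigned to human genes differed widely between libraries, which is not the sequencing depth, since mouse reads are set aside. The lowest means recur in steps that are sums of whole reads, and with Xenome 1 read of the library with the most human reads added 0.0281 to a mean and 1 read of that with the fewest added 1.53. The size factors behind these steps ran from 0.109 to 5.93, a span of 54.4 times, with 3 values between 4.86 and 5.93 and 3 values between 0.109 and 0.427. With XenofilteR the span was 54.6 times. No step was matched to a library or a culture. The markers of the line were high. Of 9 prostate markers, 8 were analysed, all but KLK2. Their Xenome means ran from 4603 for TMPRSS2 to 51038 for KLK3, which encodes prostate-specific antigen. Of 7 osteoblast markers, 4 had a Xenome mean below 50. ALPL stood at 0.103, SP7 at 0.984, BGLAP at 3.78 and RUNX2 at 411 with Xenome. COL1A1 had 3384 with Xenome, 4557 with XenofilteR and 2471 with Kallisto. In the same order, COL1A2 had 45.0, 263.6 and 222, and SPARC had 72.0, 142 and 142. Whether mouse reads add to these human values was not tested.

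The genes of fusion and fission were abundant, and the 3 pipelines gave nearly the same level for each. MFN2 (ENSG00000116688, chromosome 1 of GRCh38 from 11980181 to 12013514) had the highest mean count of the 10 genes, 14094 with Xenome, 14119 with XenofilteR and 14098 with Kallisto. OPA1 (ENSG00000198836, chromosome 3 from 193593144 to 193697811) had 10784, 10774 and 10864. MFN1 (ENSG00000171109, chromosome 3 from 179347709 to 179394936) had 6302, 6304 and 6486. The largest departure from Xenome among these fusion genes was that of MFN1 with Kallisto, whose mean was 1.03 times as high. DNM1L (ENSG00000087470, chromosome 12 from 32679200 to 32745650) had 7312 with Xenome, 7596 with XenofilteR and 7626 with Kallisto. Its XenofilteR mean was 1.04 times that of Xenome, a ratio above that of 94.9% of 11657 protein-coding genes with a Xenome mean of at least 50.

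Divided by the exonic length of each gene in GENCODE release 44, the Xenome level was 1377 counts per kb for MFN2, 1193 for OPA1, 1060 for MFN1 and 907 for DNM1L. The level of MFN2 was 1.30 times that of MFN1 on this scale. Per kb of the canonical transcript, which leaves out exons of other isoforms, the ratio was 2.65. The order MFN2, then OPA1, then MFN1 held with both lengths, but the distance between the mitofusins depended on the length used. DNM1L stood at 0.760 of OPA1 per exonic kb and at 0.966 of it per kb of the canonical transcript, where it lay above MFN1. No spread over libraries is given, so neighbours in this order cannot be told apart by their error.

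**Figure D1:**
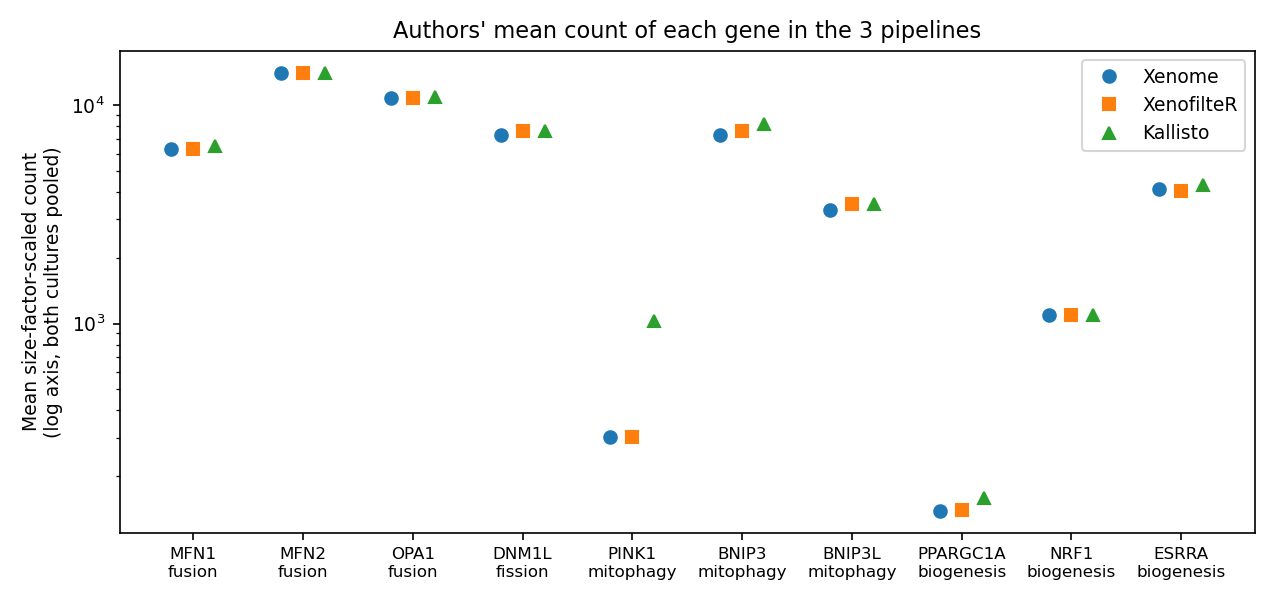
Mean size-factor-scaled count of the 10 genes (vertical log axis, both cultures pooled) with Xenome (circles), XenofilteR (squares) and Kallisto (triangles), which are the authors' means and carry no error bars. The 3 points of a gene lie close together except for PINK1, whose Kallisto mean is 3.41 times its Xenome mean.

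Among the mitophagy genes, the receptors were above the kinase. BNIP3 (ENSG00000176171, chromosome 10 from 131966455 to 131982013, minus strand) had a mean count of 7316 with Xenome, 7642 with XenofilteR and 8222 with Kallisto. BNIP3L (ENSG00000104765, chromosome 8 from 26383054 to 26505636) had 3329, 3533 and 3522. Per exonic kb, BNIP3 was the most abundant of the 10 genes with 1806 counts, which was 2.25 times the level of BNIP3L. Per kb of the canonical transcript this ratio was 4.92.

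PINK1 (ENSG00000158828, chromosome 1 from 20633458 to 20651511) had a mean count of 302 with Xenome, 303 with XenofilteR and 1028 with Kallisto. Per exonic kb, BNIP3 stood 28.9 times as high as PINK1 with Xenome and 9.55 times as high with Kallisto. BNIP3L stood 12.9 times as high as PINK1 with Xenome and 3.99 times as high with Kallisto. Per kb of the canonical transcript, BNIP3 stood 41.8 and 13.8 times as high as PINK1 with these pipelines, and BNIP3L 8.49 and 2.64 times. The order of the mitophagy genes was the same in both pipelines and with both lengths, while the distance of PINK1 from the receptors depended on the pipeline and the length.

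The regulators of biogenesis differed most in level. ESRRA (ENSG00000173153, chromosome 11 from 64305497 to 64316743), an orphan nuclear receptor, had a mean count of 4118 with Xenome, 4050 with XenofilteR and 4313 with Kallisto. NRF1 (ENSG00000106459, chromosome 7 from 129611720 to 129757082) had 1098, 1094 and 1090. PPARGC1A (ENSG00000109819, chromosome 4 from 23755041 to 23904089, minus strand) was the lowest of the 10 genes, with 138 with Xenome, 140 with XenofilteR and 159 with Kallisto.

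Per exonic kb, ESRRA had 1328 counts, NRF1 had 267 and PPARGC1A had 12.7 with Xenome. ESRRA thus stood 104 times as high as PPARGC1A, and NRF1 stood 20.9 times as high. With the canonical transcript as length these ratios were 82.3 and 14.2. The Xenome mean of PPARGC1A exceeded that of 46.6% of the protein-coding genes, against 64.6% for NRF1 and 87.2% for ESRRA. For fusion and fission genes these shares lay between 92.6% for MFN1 and 97.9% for MFN2, and for PINK1 the share was 50.9%.

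**Figure D2:**
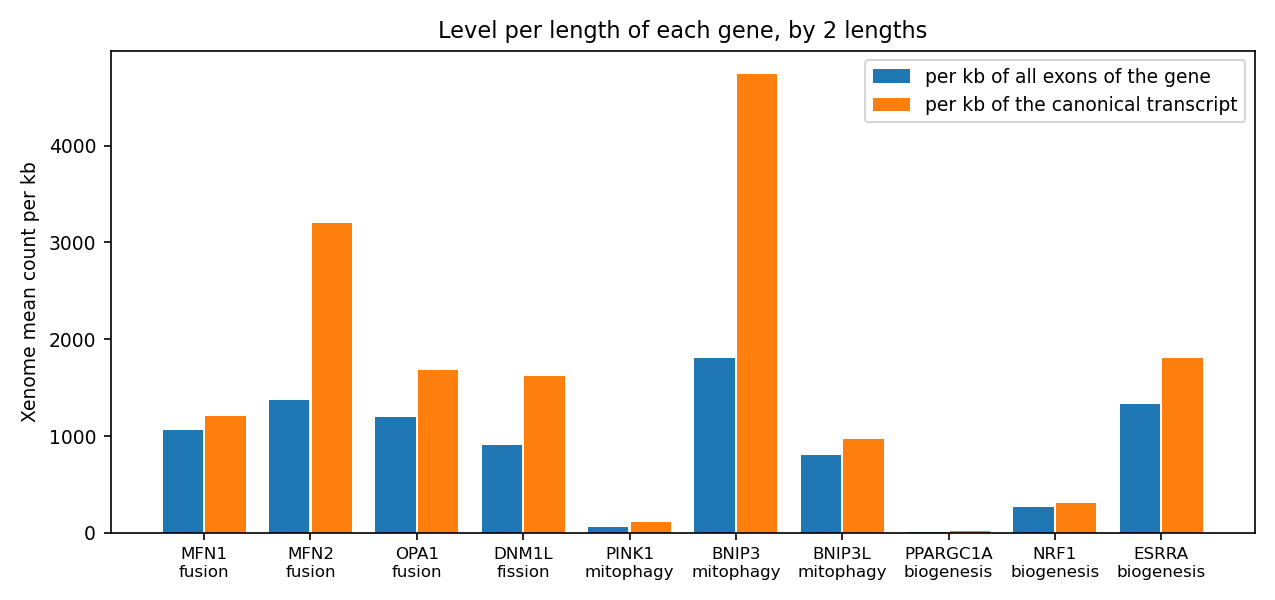
Xenome mean count per kb of each gene (vertical linear axis from 0), divided by the length of all its exons (blue) or of its canonical transcript (orange). BNIP3 is the highest with both lengths, at 1806 and 4744, and PPARGC1A the lowest, at 12.7 and 22.0.

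PINK1 was the gene on which the pipelines parted. For the other 9 genes the ratio of the Kallisto to the Xenome mean lay between 0.993 and 1.15, and for PINK1 it was 3.41. That ratio exceeded that of 97.1% of the 11657 protein-coding genes, whose median was 1.02. PINK1 lies on the plus strand, and PINK1-AS, a long non-coding RNA, runs across its 3′ part on the minus strand. Of the exonic bases of PINK1, 39.5% lie in an exon of PINK1-AS. Of the 2657 bases of its canonical transcript, 1545 do, or 58.1%, and of its coding bases 41.4% do. Exons 6, 7 and 8 lie there in full and exon 5 in part. PINK1-AS had a mean count of 241 with both Xenome and XenofilteR, and Kallisto lists no mean for it. Kallisto gives a mean to 20359 genes, of which 19939 are protein-coding, and to none of the long non-coding RNAs, so the missing value is not a measured level.

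The first coding exon that PINK1-AS covers in full is exon 6. Its first 100 bases, read on the plus strand of GRCh38 at chr1:20648505-20648604, are shown because a fragment from here can belong to either gene unless the strand is used. The libraries were stranded, and the strand setting of the count is not given in the sources used here.
PINK1 exon 6: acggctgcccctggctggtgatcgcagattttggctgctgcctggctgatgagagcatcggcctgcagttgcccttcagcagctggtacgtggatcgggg

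**Figure D3:**
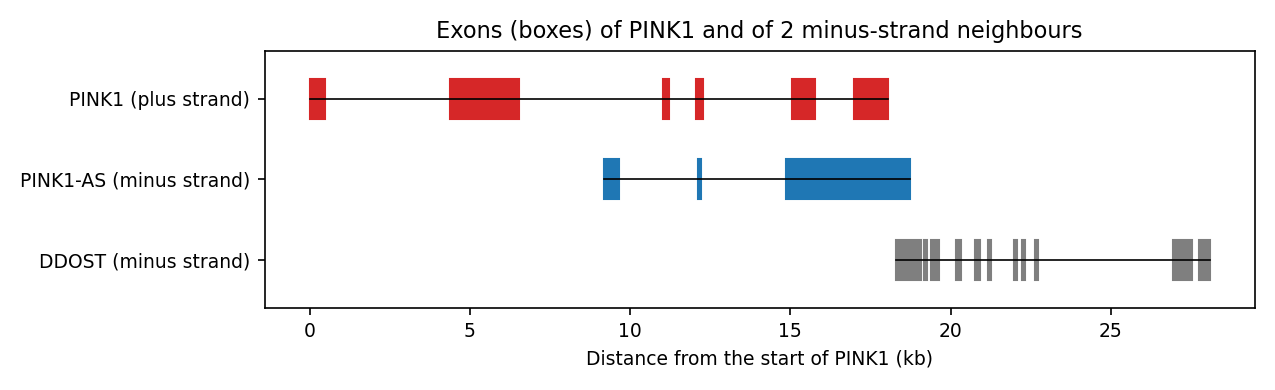
Exons (boxes) of PINK1, PINK1-AS and DDOST along the horizontal axis in kb from the start of PINK1, with all isoforms merged. An exon block of PINK1-AS, from 14.9 to 18.7 kb, covers both 3′ blocks of PINK1 exons, while the exons of DDOST, on the minus strand, lie beyond the end of PINK1.

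Overlap of exons with another gene was small for the other members. It was 9.16% of the exonic bases for ESRRA, where the partner TRMT112 had a mean of 4504 with Xenome and 4685 with Kallisto. For BNIP3L it was 7.95%, where the partner PNMA2 had 0.653 with Xenome and 40.3 with Kallisto. It was 2.51% for DNM1L and 2.30% for OPA1, and 0% for MFN1, MFN2, BNIP3, PPARGC1A and NRF1. All of these partners were on the opposite strand. Over the protein-coding genes, the median ratio of Kallisto to Xenome was 1.01 in 9437 genes with an overlap under 10%, 1.16 in 1930 genes with an overlap of 10% to 50%, and 2.85 in 281 genes with at least 50%. The ratio was over 1.5 in 4.56%, 24.6% and 80.1% of them. The part of the overlap in the PINK1 value was not tested.

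The ratio of XenofilteR to Xenome moved less, from 0.983 for ESRRA to 1.06 for BNIP3L. BNIP3 stood at 1.04, and the ratios of MFN1, MFN2, OPA1, PINK1, NRF1 and PPARGC1A lay between 0.996 and 1.01. Over the 11657 protein-coding genes, 95% of ratios lay between 0.982 and 1.08, and each of the 10 genes lay within this range. ESRRA also shared 10.2% of its distinct 31-base sequences with the processed pseudogene ESRRAP1 and 7.82% with ESRRAP2. ESRRAP1 had a mean of 22.0 with Xenome and 9.14 with XenofilteR, and ESRRAP2 had 33.3 and 11.9. BNIP3 shared 19.9% with BNIP3P1, whose mean was 20.5 with Xenome and 21.4 with XenofilteR. These means were a small fraction of those of the parent genes, and how reads were split between parent and copy is not given in the sources used here.

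Among the 10 genes, the share of 31-base sequences that also occur in mouse transcripts was highest in the regulators of biogenesis. Of the distinct 31-base sequences of each gene's transcripts, 9.49% occurred in mouse transcripts (GENCODE release M21) for ESRRA, 9.23% for PPARGC1A and 6.46% for NRF1. These shares exceeded those of 98.2%, 98.1% and 95.9% of the protein-coding genes with a Xenome mean of at least 50. DNM1L had 2.22%, BNIP3L 1.99%, MFN2 0.941%, OPA1 0.835%, MFN1 0.747%, BNIP3 0.515% and PINK1 0.145%. The ratio of the XenofilteR to the Xenome mean was 0.983 for ESRRA, lower in only 2.81% of these genes, 0.996 for NRF1 and 1.01 for PPARGC1A. BNIP3L had 1.06, and DNM1L and BNIP3 had 1.04 each. Among the 766 protein-coding genes with a mouse share of at least 5%, the middle 95% of ratios ran from 0.926 to 1.18, against 0.982 to 1.08 over all 11657. The part of shared sequence in these ratios was not tested.

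The longest coding stretches within 1 exon whose every 31-base sequence occurs in mouse transcripts are shown for DNM1L, with the longest found, and for PPARGC1A and ESRRA, with the highest shares. Of the 9 members examined, 8 had such a stretch and PINK1 had none, and BNIP3L was not examined. Each of the 3 shown is longer than the 50 bases of 1 read, while the other read of its pair can lie outside. They lie at chr12:32718654-32718736 (plus strand, exon 7), chr4:23813714-23813772 (minus strand, exon 8) and chr11:64315060-64315115 (plus strand, exon 6) of GRCh38.
DNM1L: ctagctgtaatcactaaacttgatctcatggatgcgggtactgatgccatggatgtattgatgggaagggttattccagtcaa
PPARGC1A: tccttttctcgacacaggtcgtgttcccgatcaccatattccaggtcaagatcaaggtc
ESRRA: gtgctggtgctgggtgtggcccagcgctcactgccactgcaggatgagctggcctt

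Further genes of the same processes were summarised from a list of 59, all of which were measured. Of these, 54 had a Xenome mean of at least 50. Among all 19939 protein-coding genes, 11657 had such a mean and a value in both other pipelines. In fusion and the processing of its proteins, 8 of 9 genes had a Xenome mean of at least 50. STOML2, a prohibitin-family protein of the inner membrane, was the highest of the 9 with 3682 counts per exonic kb. PLD6, a mitochondrial phospholipase with a mean of 20.3, fell short of 50 and had 7.88 per exonic kb. In fission all 11 did, with the outer membrane adaptor FIS1 highest at 2354 per exonic kb and GDAP1 lowest at 16.3. In mitophagy 20 of 22 did, with FKBP8, an outer membrane receptor, highest at 3390 per exonic kb. In biogenesis 15 of 17 did, and PRKAA1, the catalytic alpha-1 subunit of AMPK, was the highest of the 17 at 1302 per exonic kb. The receptor ESRRB, 1 of the genes short of 50, had 0.0169 per exonic kb.

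Kallisto and Xenome lay within 1.5-fold of each other for 52 of these 54 genes. Of the 11657 protein-coding genes, 9.73% had a ratio of Kallisto to Xenome over 1.5. The exceptions among the 54, named after their values were seen, were PARL, the inner membrane protease that cleaves PINK1, and MTFP1, a fission protein. PARL had a mean of 633 with Xenome and 2555 with Kallisto, and 47.7% of its exonic bases overlap another gene. MTFP1 had 260 with Xenome and 932 with Kallisto, with an overlap of 55.5%. Nearly all of the overlap of PARL, and all of that of MTFP1, is with a protein-coding gene model on the same strand, whereas PINK1-AS lies on the strand opposite to PINK1. TFB1M, with an overlap of 38.7% and close to PINK1 in this respect, had 313 with Xenome and 322 with Kallisto.

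**Figure D4:**
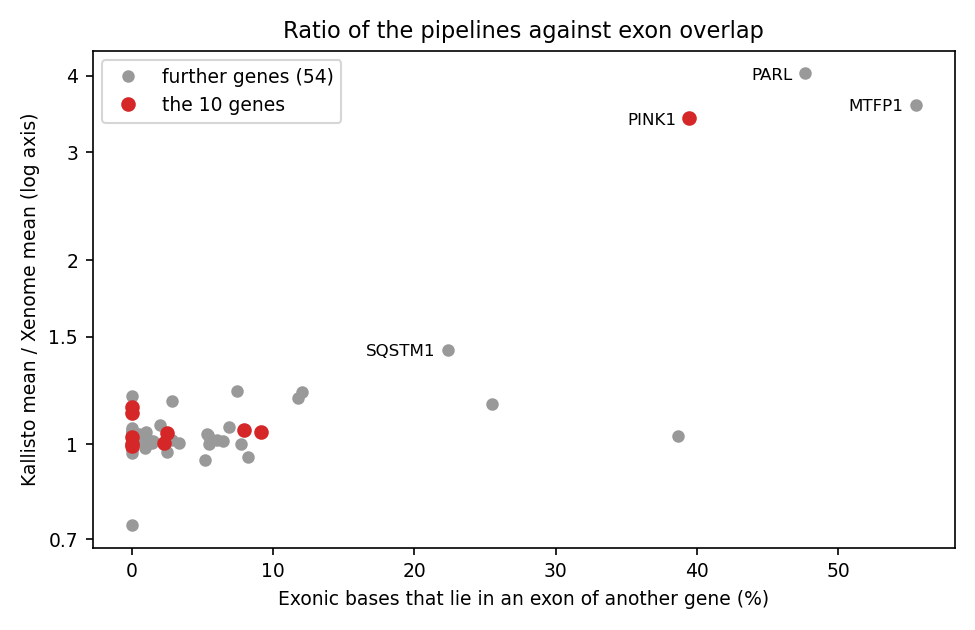
Ratio of the Kallisto to the Xenome mean (vertical log axis) against the percent of a gene's exonic bases in exons of another gene, for the 10 genes (red) and 54 further genes with a Xenome mean of at least 50 (grey). PINK1, PARL and MTFP1 stand at 3.41, 4.04 and 3.58, and the remaining genes lie below 1.5.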

How the data were processed

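Stranded mRNA libraries were sequenced as 50-base read pairs. In the Xenome pipeline the authors selected human reads before alignment, and in that of XenofilteR they filtered out mouse reads after it. Both used HISAT2, GRCh38 and featureCounts. The remaining pipeline ran Kallisto on joined human and mouse transcriptomes. Versions and strand settings are not given in the sources used here. The authors then ran DESeq2, and the deposited table gives per pipeline the mean of the scaled counts used here. Its 5 other columns per pipeline hold the authors' own comparison (log2 fold change, standard error, Wald statistic and p-values before and after adjustment) and were not used. The deposited table holds no counts per library, so the planned test between cultures was not run.

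Of 41734 rows, 21 repeats were dropped. Exonic lengths, overlaps (among the 41538 listed genes found in GENCODE release 44) and shared 31-base sequences were computed with python 3.11.15, numpy 2.4.6 and pandas 2.3.3, and checked on simulated data, as were the read steps. Coordinates are those of the table, and 8 of 10 members have the same in GENCODE 44. BNIP3L was left out of the stretches shared with mouse. All 10 members are named, and of the further genes the highest and lowest per role, with 1 gene not reported here. Members and lists were chosen with earlier results of these data known. KLK2 was not analysed here.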

Additional observations from a re-analysis of the deposited data

How the results depend on the processing

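No paired analysis was possible because the table gives pooled means and no value per library, so the comparison of the cultures without 1 replicate, with another normalization or with another filter on low counts could not be run either. The level of all 10 genes with XenofilteR and of 9 with Kallisto lay within 1.5-fold of the Xenome level, and for PINK1 the Kallisto mean was 1028. The share of genes below a member moved by over 10 percentage points for PINK1, PPARGC1A and NRF1, to 74.97%, 71.4% and 82.6% over all listed genes, and to 26.7%, 20.2% and 47.1% over protein-coding genes with a mean of at least 10. Order by exonic length left 5 of 10 genes in their place, and order by the canonical transcript, an alternative chosen after the data were seen, left 4. BNIP3 came first and PPARGC1A last with both lengths. Exonic overlap with all genes of GENCODE 44, also chosen later, was 41.7% for PINK1. The number of human reads limits the low means, since 1 read of the library with the fewest adds 1.53 with Xenome.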

Other observations

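FUNDC1, an outer membrane receptor of mitophagy on chromosome X from 44523639 to 44542859, was singled out after its value was seen. The 3 pipelines gave it means of 0.710 (Xenome), 0.709 (XenofilteR) and 0.714 (Kallisto), and the Xenome value resolves into 23 reads, with 8, 10 and 5 in the 3 libraries with the most human reads and 0 in the others. One read of each of these others would have added between 0.391 and 1.53. On the same chromosome, MAOA had a Xenome mean of 28171 and KDM6A 8316, while EFHC2, next to FUNDC1, had 66.1 and DUSP21 1.44. In the same cells the receptors BNIP3, BNIP3L, FKBP8 and BCL2L13 were abundant, with Xenome means of 7316, 3329, 9556 and 3792.

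VCP and MARCHF5 had the highest ratios of XenofilteR to Xenome among the 59 further genes, and were named after their values were seen. VCP, an ATPase that extracts ubiquitinated proteins from membranes, had a mean of 18923 with Xenome, 22473 with XenofilteR and 22671.5 with Kallisto. Its ratio of XenofilteR to Xenome was 1.19. MARCHF5, a ubiquitin ligase of the outer membrane, had 2824 and 3124, a ratio of 1.11. Their shares of 31-base sequences found in mouse transcripts were 1.13% and 1.22%.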
